A study of Mus musculus with 8 samples.

Results

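The genes described here are 10 components and targets of the NRF2 antioxidant pathway: the transcription factor gene Nfe2l2 (which encodes NRF2), its inhibitor Keap1, the cystine transporter gene Slc7a11, and the antioxidant genes Gclc, Gclm, Gsr, Txnrd1, Srxn1, Nqo1 and Hmox1. They were taken by gene name from tables of 35494 loci (1 h) and 35541 loci (8 and 24 h), and each of the 10 had a single row in every table. The FPKM of Slc7a11 fell to 0.511 of its untreated value at 8 h and to 0.120 at 24 h after METTL3 was targeted for degradation. None of the other 9 met the criterion for a change at 1, 8 or 24 h. The genes were chosen by name when the FPKM ratios of Slc7a11 at 8 and 24 h were already known, so its values are a description and carry no test.

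Messenger RNA came from mouse retinal organoids at day 6 of differentiation, grown from a line (Rx:GFP) that reports the retinal gene Rax with GFP. In every group, untreated samples included, each endogenous copy of Mettl3 carries FKBP12F36V-HA, a degron tag, at the C-terminus of the protein, so there was no untagged control. The labels of the groups differ in time with dTAG-13 and, for 0 h, in its absence. Day 6 is given for every group, and whether it marks the start or the end of treatment is not stated here. No untreated group was kept for each treatment time. Loss of METTL3, other effects of dTAG-13 and any difference in time in culture therefore cannot be told apart. METTL3 writes N6-methyladenosine (m6A) on RNA, and dTAG-13 is a small molecule that recruits a ubiquitin ligase to the tagged protein. The 4 groups of 2 samples each received 125 nM dTAG-13 for 1, 8 or 24 h or none (0 h), and the labels do not say whether the 0 h samples received solvent, how many clones the line represents, or whether the 2 samples of a group came from separate cultures.

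NRF2 is made continuously and destroyed continuously: KEAP1 holds it and hands it to a CUL3 ubiquitin ligase. Oxidants or electrophiles modify KEAP1, NRF2 then accumulates, pairs with small MAF proteins and binds antioxidant response elements near genes for glutathione synthesis, thioredoxin recycling and quinone and haem breakdown. Slc7a11 is also a known target of ATF4, the factor of the amino acid stress response, and is known to be repressed by p53. Because NRF2 is controlled mainly through its protein, transcript levels of Nfe2l2 and Keap1 do not measure its activity.

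Both samples of a group enter a single value per gene in the deposited tables, so no spread between samples and no p-value can be given. The error printed with each FPKM (sequenced fragments divided by transcript length in kilobases and by library size) is the interval deposited with it. A locus was tested when it reached 1 FPKM in 1 of the conditions. It was called changed when FPKM + 0.1 differed at least 1.5-fold and the intervals did not overlap. Under this rule the 1 h table had 0.402% of 13690 tested loci called (0.117% higher, 0.285% lower). The share was 4.43% of 13825 loci in the 8 h table (3.49% higher, 0.94% lower), and 5.48% of 13910 loci in the 24 h table (3.83% higher, 1.65% lower). The 10 genes were all tested in each table: none was called at 1 h, and at 8 h and 24 h 1 was called, Slc7a11, lower both times. Because the fall was known when the genes were listed, nothing is read from this count. Applied to estimated counts with 2 SD to each side, the rule called 0.278% of loci at 1 h (0.0292% higher, 0.248% lower), 5.95% at 8 h (4.69% and 1.26%) and 7.48% at 24 h (5.1% and 2.39%). Of the calls at 1 h, 16 of 55 were higher by FPKM and 4 of 38 by estimated counts. Summed estimated counts per condition lay between 31361500 and 32562100.

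The identity of the tissue was read from 8 marker lists, given here as summed FPKM at 0 h and 24 h over the genes with a locus of their own. Eye field genes (Rax, Pax6, Six3, Six6 and Lhx2, 5 in all) summed to 424 and 579, with Lhx2 and Rax called higher. The 4 pluripotency genes summed to 276 and 180, with Dppa5a called lower. No gene of the other 6 lists was called at any time. The 4 pigment epithelium genes summed to 48.1 and 81.8, mostly through Pmel, at 28.9 FPKM (interval 13.3 to 44.5) and 60.3 (35.6 to 85.0), while Tyr and Rpe65, defining genes of that epithelium, were listed at or near 0. The 5 mesoderm and endoderm genes summed to 3.89 and 5.64, and the 3 of them that were tested had a median log2 ratio of 0.52. Sums were 4.95 and 3.68 for neurons, 20.8 and 21.8 for telencephalon, 6.99 and 6.08 for astrocytes and Muller glia, and 0.474 and 0.433 for neural crest. The part of these cell types in the values below was not tested. In bulk RNA, fewer cells of a type and less RNA per cell cannot be told apart.

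The promoter of Slc7a11 is shown because this gene carries the change. The 250 bases before its start site (RefSeq, GRCm38.p6, minus strand, chr3:50443614-50443863) hold a facing pair of the ATF4 amino acid response core, TGATGNAA, searched on both strands. Both matches are in capitals below, with the second one read on the opposite strand.
Slc7a11: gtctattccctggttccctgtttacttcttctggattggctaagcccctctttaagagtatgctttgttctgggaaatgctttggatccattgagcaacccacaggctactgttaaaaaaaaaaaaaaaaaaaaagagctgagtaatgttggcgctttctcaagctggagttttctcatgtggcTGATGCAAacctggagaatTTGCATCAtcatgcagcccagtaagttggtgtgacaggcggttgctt
Along the sequence as shown, the matches begin 66 and 47 bases before the start site. Of 32851 promoter windows of 300 bases in the same table, 3.97% hold this motif, and Slc7a11 was the only one of the 7 genes with an entry that did. The share counts windows and not genes. This motif was searched after the data were seen, with Slc7a11 already known as an ATF4 target, so nothing is read from its presence there. Gclc, Gsr and Hmox1 had no entry. A match describes letters in the window and is not evidence of binding.

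The antioxidant response element core, TGACNNNGC on either strand, is what NRF2 and its MAF partner are known to bind, so its matches are shown for the genes that have one in the same 300 base windows (RefSeq, GRCm38.p6). No gene with an entry held both this core and the ATF4 core. Capitals mark the core, and each line reads 5′ to 3′ on the strand that holds it.
Nfe2l2, chr2:75704885-75704913, minus strand: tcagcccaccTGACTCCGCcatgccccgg
Gclm, chr3:122245413-122245441, minus strand: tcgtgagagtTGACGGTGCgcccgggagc
Txnrd1, chr10:82859104-82859132, minus strand: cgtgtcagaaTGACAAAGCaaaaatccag
Srxn1, chr2:152105542-152105570, minus strand: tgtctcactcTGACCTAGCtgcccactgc
The core was present in 4 of the 7 genes with an entry, and in 12.4% of all windows. The first share counts genes and the second windows, and Txnrd1 has 3 windows, so they are not on 1 scale. Positions are those of the base of the core that comes first on the strand of the gene. That base lay 240 bases before the start in Nfe2l2, 134 in Gclm and 92 in 1 of the 3 windows of Txnrd1. In Srxn1 it lay 29 bases after the start. None of these 4 genes was called at any time. No match was found in the windows of Slc7a11, Keap1 and Nqo1, and these windows leave out elements farther from the start.

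METTL3 is known to favour a short sequence that reads GGACT in DNA letters, and m6A itself was not measured here. Sites in coding sequence are shown for Slc7a11, the gene that fell, and for Keap1 and Nfe2l2, the genes with the highest ratios at 8 h. Keap1 and Nfe2l2 were not called. At 24 h Nqo1, with 1 site in coding sequence, had a higher log2 ratio (0.55) than Nfe2l2 (0.47). The genes shown were picked by their ratios, so nothing is read from their numbers of sites. The motif is in capitals, the sequences are those of representative GENCODE M21 transcripts (GRCm38), and all lie on the minus strand within a single exon.
Slc7a11, exon 10 of 12, chr3:50379071-50379095: ggcagtcgcaGGACTgatttatctt
Keap1, exon 2 of 5, chr9:21233805-21233829: cgcgctgcaaGGACTacctggtgca
Keap1, exon 2 of 5, chr9:21233520-21233544: ccagcgccctGGACTgctacaaccc
Keap1, exon 3 of 5, chr9:21231775-21231799: ggctttgacgGGACTaaccggctta
Keap1, exon 4 of 5, chr9:21231313-21231337: acagagacctGGACTttcgtagccc
Nfe2l2, exon 1 of 5, chr2:75704389-75704413: tcagcatgatGGACTtggagttgcc
Nfe2l2, exon 1 of 5, chr2:75704367-75704391: gccaccgccaGGACTacagtcccag
Nfe2l2, exon 2 of 5, chr2:75679329-75679353: agcgacagaaGGACTatgagctgga
Nfe2l2, exon 5 of 5, chr2:75676824-75676848: ctcctggacgGGACTattgaaggct
Beyond the coding sequence, Nfe2l2 has 2 further copies in its 5′ UTR and Slc7a11 has 3 in its 3′ UTR, which is 7367 bases long. Per kilobase of transcript, Nfe2l2 holds 2.42 copies, Keap1 1.11 and Slc7a11 0.434, where the median of 21827 protein-coding genes is 1.02. In number, Slc7a11 has 4 copies in a transcript of 9223 bases and Keap1 also has 4, where the median is 3. Srxn1 has 4 copies, all in its 3′ UTR (1.42 per kilobase), Nqo1 2 (1.29), Gclm 4 (0.716), Gclc 2 (0.584), Txnrd1 2 (0.566) and Gsr 1 (0.374). Hmox1 is the 1 member with none, while 87.1% of the transcripts hold at least 1 copy.

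Before treatment the 10 genes covered a 39.6-fold range of FPKM. Txnrd1, the cytosolic thioredoxin reductase, was the highest at 94.9 (interval 76.7 to 113) and lay clear of the next gene. Hmox1 (26.7, interval 21.3 to 32.1), Gsr (22.9, 18.1 to 27.6), Gclc (19.2, 15.4 to 23.0), Gclm (17.7, 11.7 to 23.7), Nfe2l2 (17.5, 13.9 to 21.2) and Keap1 (11.6, 7.67 to 15.5) followed, with overlapping intervals between neighbours in that order. Srxn1 (5.59, 4.13 to 7.05) stood apart on both sides. Slc7a11 (2.43, 1.83 to 3.02) and Nqo1 (2.39, 1.64 to 3.15) were the lowest and overlapped each other. These are the 0 h values of the 8 h table, and FPKM is per transcript length, so the order compares genes. The same 0 h libraries gave values within 1.02-fold of these in the other tables.

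**Figure D1:**
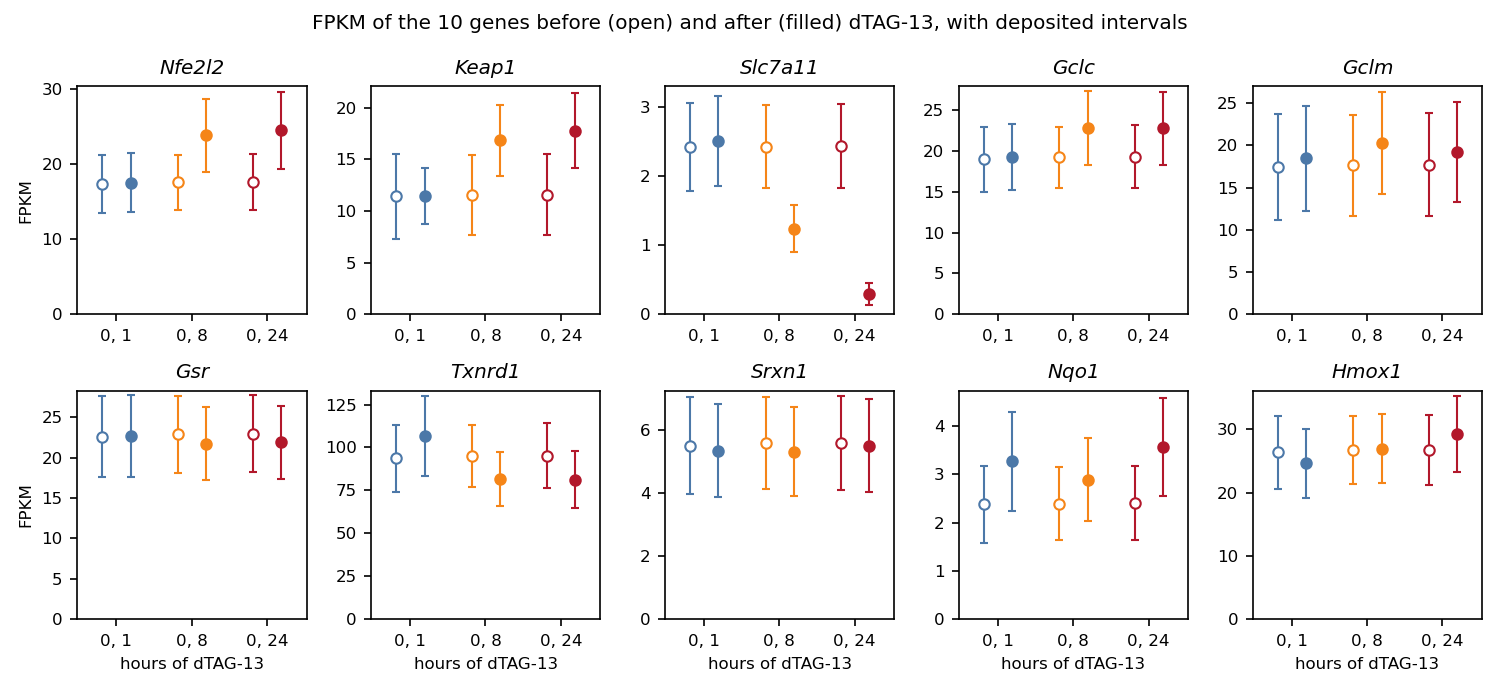
FPKM (vertical axis, from 0) of each of the 10 genes in the 3 tables, each pairing 0 h (open) with 1, 8 or 24 h of dTAG-13 (filled); bars are the deposited intervals and each point combines 2 samples. Only Slc7a11 at 8 and 24 h has an interval clear of its 0 h interval.

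Slc7a11 encodes xCT, the subunit of the cystine and glutamate exchanger that brings in cystine, the source of cysteine for glutathione. It occupies positions 49892526 to 50443614 of chromosome 3, minus strand (GRCm38, ENSMUSG00000027737.10), and its representative transcript of 12 exons spans 50364938 to 50443611. The 1 h table gave 2.43 FPKM (interval 1.79 to 3.06) untreated and 2.50 (1.85 to 3.15) treated. In the 8 h table the value was 2.43 (1.83 to 3.02) untreated and 1.24 (0.899 to 1.58) treated. In the 24 h table it was 2.43 (1.83 to 3.04) untreated and 0.293 (0.130 to 0.455) treated. The 1 h interval thus overlapped that of 0 h almost fully, and those of 8 and 24 h lay wholly below it.

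As log2 ratios of FPKM + 0.1 these are 0.04 at 1 h, -0.92 at 8 h and -2.69 at 24 h. Without the added 0.1, FPKM was 1.96-fold lower at 8 h and 8.32-fold lower at 24 h. The estimated counts behind it were 729 ± 83.2 (SD of the authors' model) at 0 h and 733 ± 84.5 at 1 h, then 740 ± 78.2 and 378 ± 44.2 in the 8 h table. In the 24 h table they were 732 ± 78.4 and 87.5 ± 14.9, a log2 ratio of -3.06 (SE 0.29 from the deposited variances). At 1 h the intervals allow a ratio of FPKM between 0.605 and 1.76, so a smaller early change was not detectable.

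From 8 to 24 h the fall continued: the treated FPKM was 4.23-fold lower at 24 h than at 8 h, and the intervals of these values do not overlap. They come from tables that were normalized separately, with 0 h values that differ by a factor of 1.0035. Ranked by log2 ratio among loci with at least 10 estimated counts in 1 of the conditions, Slc7a11 was 189th from the lowest of 13440 at 8 h and 9th of 13512 at 24 h. At 1 h, 59.3% of 13301 loci lay below it. The antisense locus Gm37854, the other locus of the tables that overlaps Slc7a11, was listed at 0 FPKM in all conditions.

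**Figure D2:**
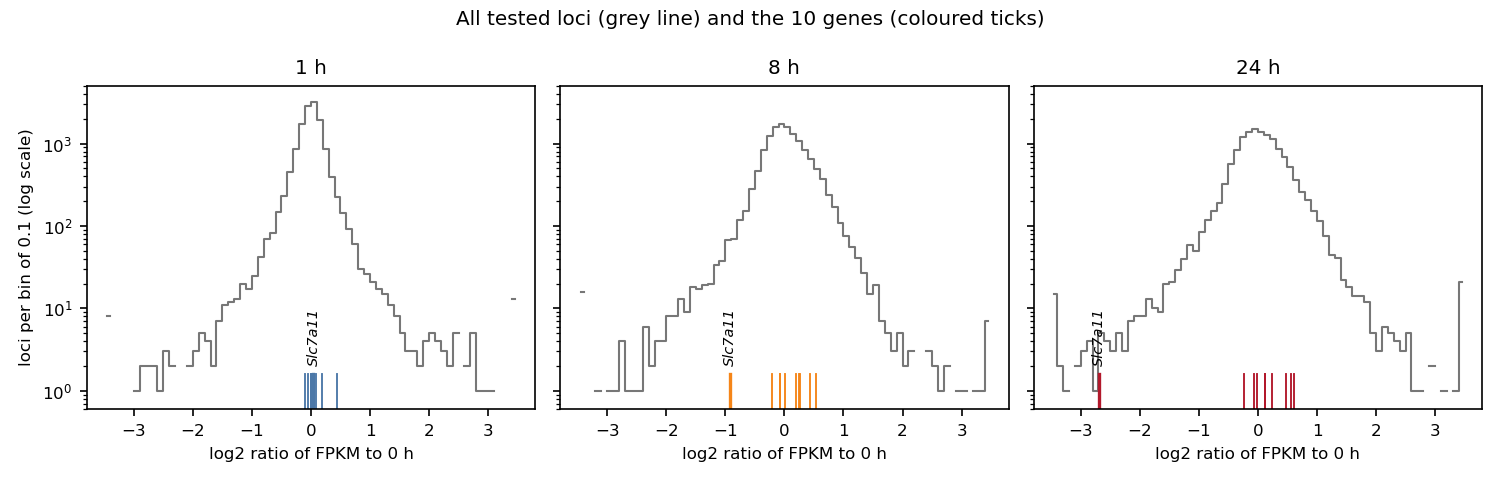
Log2 ratios of FPKM to 0 h for all tested loci (grey line, number per bin of 0.1 on a log axis, with loci beyond 3.5 placed in the end bins and empty bins left blank) and for the 10 genes (coloured ticks) at 1, 8 and 24 h. Slc7a11 sits at 0.04 at 1 h, moves to -0.92 at 8 h and to -2.69 at 24 h, while the other 9 ticks stay between -0.23 and 0.61.

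Nfe2l2, the NRF2 gene, occupies positions 75675513 to 75704641 of chromosome 2, minus strand (ENSMUSG00000015839.6). Untreated organoids had 17.3 FPKM (interval 13.5 to 21.2), and those treated for 1 h had 17.5 (13.5 to 21.4). In the later tables it was 17.5 (13.9 to 21.2) untreated and 23.8 (19.0 to 28.6) at 8 h, and 17.6 (13.9 to 21.3) untreated and 24.5 (19.3 to 29.6) at 24 h. The level was thus higher at both later times by similar amounts (log2 ratios 0.44 and 0.47), under 1.5-fold and with overlapping intervals. At 24 h the intervals allow a ratio from 0.909 to 2.13.

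Keap1, the sensor that marks NRF2 for degradation, occupies positions 21229730 to 21239361 of chromosome 9, minus strand (ENSMUSG00000003308.15). The 1 h table gave 11.4 FPKM (7.32 to 15.5) untreated and 11.4 (8.74 to 14.2) treated. Untreated and treated values were 11.6 (7.67 to 15.5) and 16.9 (13.4 to 20.3) at 8 h, and 11.6 (7.65 to 15.6) and 17.8 (14.1 to 21.4) at 24 h. The log2 ratios at 8 and 24 h, 0.54 and 0.61, were the highest of the 10 genes, and at 24 h the ratio passed 1.5-fold while the intervals overlapped.

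By estimated counts Keap1 went from 1126 ± 117 (SD of the authors' model) to 1741 ± 176 at 24 h, a log2 ratio of 0.63 (SE 0.21). With counts and 2 SD to each side in place of FPKM and its interval, Keap1 was called higher at 24 h, where 7.48% of loci were called. The untreated FPKM interval of Keap1 extended 34.1% to each side, against a model SD of 10.4% for its count. The antisense locus Gm16754 overlaps Keap1 and had 1.25 FPKM at 0 h and 1.13 at 24 h. Whether fragments were counted by strand is not given in the sources used here.

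Gclc and Gclm encode the catalytic and the modifier subunit of glutamate-cysteine ligase, the rate-limiting enzyme of glutathione synthesis. Gclc (chromosome 9, 77754535 to 77794485, plus strand) had 19.0 FPKM (15.0 to 23.0) at 0 h and 19.3 (15.3 to 23.3) at 1 h. It went from 19.2 (15.4 to 23.0) to 22.8 (18.2 to 27.3) at 8 h and from 19.3 (15.4 to 23.1) to 22.8 (18.3 to 27.3) at 24 h. The log2 ratio was 0.24 at both later times and the intervals overlapped widely.

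Gclm (chromosome 3, 122245557 to 122270732, plus strand) had 17.5 FPKM (11.2 to 23.7) at 0 h and 18.5 (12.2 to 24.7) at 1 h. It had 17.7 (11.7 to 23.7) and 20.3 (14.3 to 26.3) in the 8 h table, and 17.7 (11.7 to 23.8) and 19.3 (13.3 to 25.2) in the 24 h table. For this gene the measures differ in sign at 24 h, with a log2 ratio of 0.12 in FPKM and -0.18 (SE 0.21) in estimated counts. Counts per unit of FPKM were 53.7 untreated and 43.8 at 24 h for Gclm, while for Gclc they were 105.7 and 105.6. The direction for Gclm at 24 h is therefore not determined.

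Gsr encodes glutathione reductase, which returns oxidized glutathione to its reduced form with NADPH. On chromosome 8 at 33652523 to 33698163 (plus strand), it had 22.6 FPKM (17.6 to 27.6) at 0 h and 22.6 (17.6 to 27.7) at 1 h. Its 8 h pair was 22.9 (18.1 to 27.6) and 21.7 (17.2 to 26.2), and its 24 h pair 22.9 (18.2 to 27.7) and 21.9 (17.4 to 26.4). The log2 ratios were 0.00, -0.07 and -0.07, and at 24 h the intervals allow a ratio from 0.626 to 1.45.

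Txnrd1, which reduces thioredoxin, lies on the plus strand of chromosome 10 at 82833951 to 82897712. It had 93.7 FPKM (74.2 to 113) at 0 h and 106 (83.1 to 130) at 1 h, then 94.9 (76.7 to 113) and 81.6 (65.7 to 97.5) in the 8 h table. In the 24 h table it had 95.2 (76.5 to 114) and 81.3 (64.6 to 98.0). Its log2 ratios were 0.18, -0.22 and -0.23, above 0 at 1 h and below 0 later, with overlapping intervals each time.

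Srxn1 encodes sulfiredoxin, which repairs overoxidized peroxiredoxins. On chromosome 2 at 152105516 to 152111376 (plus strand), it had 5.52 FPKM (3.99 to 7.05) at 0 h and 5.36 (3.89 to 6.83) at 1 h. It had 5.59 (4.13 to 7.05) and 5.32 (3.91 to 6.73) in the 8 h table and 5.61 (4.12 to 7.10) and 5.52 (4.05 to 6.98) in the 24 h table. Its log2 ratios of -0.04, -0.07 and -0.02 kept close to 0.

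Nqo1 encodes a quinone reductase that is widely used as a readout of NRF2. Its positions are 107388225 to 107403206 of chromosome 8, minus strand. It had 2.38 FPKM (1.57 to 3.18) at 0 h and 3.27 (2.24 to 4.30) at 1 h, from 102 and 141 estimated counts. The 8 h pair was 2.39 (1.64 to 3.15) and 2.89 (2.02 to 3.76), and the 24 h pair 2.40 (1.64 to 3.17) and 3.57 (2.56 to 4.58). Nqo1 was above its 0 h value at each time (log2 ratios 0.44, 0.26 and 0.55) without meeting the fold criterion or separating the intervals. Its counts were the fewest of the 10 genes at 0 h, with a model SD of 15.7% to 17.0%, so ratios from 0.808 to 2.80 are allowed at 24 h.

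Hmox1 encodes haem oxygenase 1, a stress-inducible enzyme of haem breakdown. On chromosome 8 at 75093621 to 75100589 (plus strand), it had 26.4 FPKM (20.6 to 32.2) at 0 h and 24.6 (19.2 to 30.0) at 1 h. Its 8 h pair was 26.7 (21.3 to 32.1) and 26.96 (21.5 to 32.4), and its 24 h pair 26.8 (21.3 to 32.3) and 29.3 (23.3 to 35.3). No condition stood apart, and the log2 ratios were -0.10, 0.01 and 0.13.

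**Figure D3:**
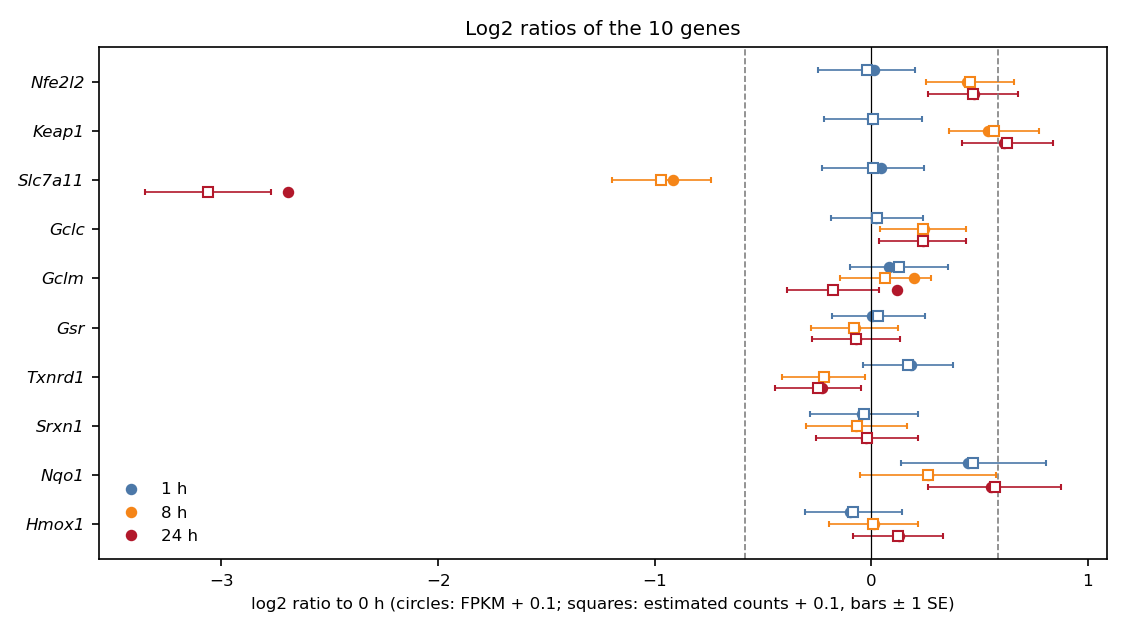
Log2 ratios to 0 h of the 10 genes at 1, 8 and 24 h from FPKM (circles) and from estimated counts (open squares, bars of 1 SE from the deposited variances); dashed lines mark 1.5-fold. Slc7a11 at 8 and 24 h lies beyond the lower line by both measures, Keap1 at 24 h beyond the upper line by both, and for Gclm at 24 h the measures fall on opposite sides of 0.

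As a group, the 10 genes had a median log2 ratio of 0.02 at 1 h, 0.10 at 8 h and 0.12 at 24 h, while all tested loci had 0.01, 0.01 and 0.02. Ratios were above 0 for 8 of 10 genes at 1 h and for 6 of 10 at 8 and at 24 h, against 51.6%, 51.3% and 52.1% of all tested loci. Among the 9 genes other than Slc7a11, log2 ratios ranged from -0.10 to 0.44 at 1 h, from -0.22 to 0.54 at 8 h and from -0.23 to 0.61 at 24 h. The targets Gclc, Gclm, Gsr, Txnrd1, Srxn1, Nqo1 and Hmox1 thus lay on both sides of 0 at 8 and 24 h, and none of them was called. All 3 comparisons share the 0 h libraries, so similar ratios at 8 and 24 h are not independent.

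The genes also differ in exon structure. Coding exon junctions per kilobase of coding sequence were 2.14 in Keap1, 2.15 in Srxn1 and 2.23 in Nfe2l2, 4.61 in Hmox1 and 6.08 in Nqo1. The other 5 had more: 7.30 in Slc7a11 and in Gclm, 7.85 in Gclc, 8.00 in Gsr and 8.02 in Txnrd1, where the median of protein-coding genes is 5.30. This density and the ratio to 0 h had a Spearman's rho across the 10 genes of 0.539 at 1 h and of -0.624 at both 8 and 24 h, given as a description of 10 genes measured in the same libraries. For GGACT copies per kilobase the rho was 0.127, 0.612 and 0.527 at 1, 8 and 24 h, and for transcript length 0.188, -0.309 and -0.418. These values include Slc7a11, whose ratios were known when the genes were listed, and none of the 10 genes was called at 1 h. A link between these properties and the ratios was not tested, and nothing is read from the rho values. The Slc7a11 transcript, at 9223 bases, is the longest of the 10.

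The wider redox network was read from 5 lists with 89 genes in all, of which 80 could be tested at 1 h and 81 at 8 and 24 h. The others shared a locus with another gene, had several loci or were below 1 FPKM. In total, 1 gene was called at 1 h, 2 at 8 h and 3 at 24 h, which is 1.25%, 2.47% and 3.70% of those tested, beside 0.402%, 4.43% and 5.48% of all loci. The called genes were Chac1, Cbr1, Cbr3 and Trp53.

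In the list for cystine supply and glutathione metabolism (25 genes tested at 1 h and 26 later), 1 gene was called lower at 1 h and none at 8 or 24 h. That gene was Chac1, which degrades glutathione, at 11.4 FPKM (8.64 to 14.1) before and 3.73 (2.63 to 4.83) after 1 h. It was not called at 8 h (log2 ratio 0.44) or 24 h (0.01). Gpx4, which reduces lipid peroxides with glutathione, and Gpx1, which reduces hydrogen peroxide, were the most abundant of the list. Gpx4 went from 256 FPKM (205 to 306) to 220 (177 to 263) at 8 h and from 257 (205 to 308) to 207 (164 to 249) at 24 h, and Gpx1 had 167 (131 to 203) and 179 (140 to 219) at 24 h, all with overlapping intervals. The list's median log2 ratio was 0.00, -0.11 and -0.09 at 1, 8 and 24 h. At 24 h its log2 ratios ran from -0.63 to 0.75, and these extremes passed 1.5-fold with overlapping intervals.

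Slc3a2, the heavy chain that xCT needs to reach the membrane, was singled out after its values were seen. It had 101 FPKM (77.0 to 125) untreated and 88.0 (69.9 to 106) at 8 h, and 101 (76.8 to 126) untreated and 81.2 (64.3 to 98.2) at 24 h. It was not called, with log2 ratios of -0.20 and -0.32 beside -0.92 and -2.69 for Slc7a11. In the 1 h table its name occurs at several loci, so no value is given.

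None of the 16 thioredoxin, peroxiredoxin and superoxide genes was called at any time by FPKM and its interval. By estimated counts Txnip was called lower at 1 h, where 0.248% of loci were. Its log2 ratio was -0.65 by counts and -0.57 by FPKM. The medians of the 16 genes were 0.08, -0.16 and -0.20, and 14 of 16 ratios at 8 h and 15 of 16 at 24 h were below 0. Of all tested loci, 51.3% at 8 h and 52.1% at 24 h were above 0. The 8 h and 24 h ratios share the 0 h libraries, so their signs are not independent. A joint shift of these genes was not tested. Prdx1, a peroxiredoxin, had 345 FPKM (253 to 438) untreated and 273 (201 to 344) at 24 h, and Sod1, the cytosolic superoxide dismutase, 456 (348 to 565) and 397 (296 to 498). The same untreated libraries gave Prdx1 477 FPKM in the table for 1 h but 344 in that for 8 h, so its estimate depends on the table.

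Of the NRF2 partners and regulators, 11 were tested and none was called, with medians of 0.03, -0.05 and -0.04. Rbx1, the RING subunit of the CUL3 ligase, had 74.1 FPKM (57.3 to 90.9) untreated and 64.9 (48.1 to 81.8) at 24 h. Dpp3, a peptidase that binds KEAP1, had 60.5 (49.0 to 72.1) and 56.4 (45.6 to 67.3).

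Among 19 tested genes for NADPH supply, iron, haem and other reported NRF2 targets, none was called at 1 h, 1 was called higher at 8 h and 2 at 24 h, and none was called lower. The medians were 0.06, -0.04 and 0.01. The called genes were Cbr3 and Cbr1, carbonyl reductases on chromosome 16. On the scale of FPKM + 0.1, Cbr3 rose 2.66-fold at 8 h, with 1.31 FPKM (0.691 to 1.94) untreated and 3.66 (2.51 to 4.80) treated. On the same scale it rose 2.82-fold at 24 h, with 1.32 (0.675 to 1.96) and 3.90 (2.68 to 5.12). Cbr1 rose 1.63-fold on that scale at 24 h, with 30.6 (24.2 to 37.0) untreated and 49.9 (39.8 to 59.9) treated. At 8 h its log2 ratio was 0.51 and the intervals overlapped. The most abundant of the list were Fth1, the ferritin heavy chain, with 304 FPKM (246 to 363) untreated and 331 (268 to 394) at 24 h, and Tkt, transketolase, with 194 (156 to 232) and 158 (126 to 190).

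The last list holds reported regulators of Slc7a11 and genes of ferroptosis, 9 of them tested, with medians of -0.03, 0.00 and -0.08. Trp53, the p53 gene, was the 1 called: it fell at 8 h, with 100 FPKM (80.2 to 120) untreated and 58.1 (46.6 to 69.5) treated, and at 24 h, with 101 (80.1 to 121) and 53.9 (42.9 to 64.9). Atf4, singled out after its values were seen, was not called. It had 89.4 (71.1 to 108) and 65.2 (51.6 to 78.8) at 1 h, 90.5 (73.3 to 108) and 99.0 (80.1 to 118) at 8 h, and 90.8 (73.3 to 108) and 76.6 (61.7 to 91.5) at 24 h. Tfrc, the transferrin receptor, had 101 (78.6 to 122) and 109 (84.5 to 133) at 24 h.

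**Figure D4:**
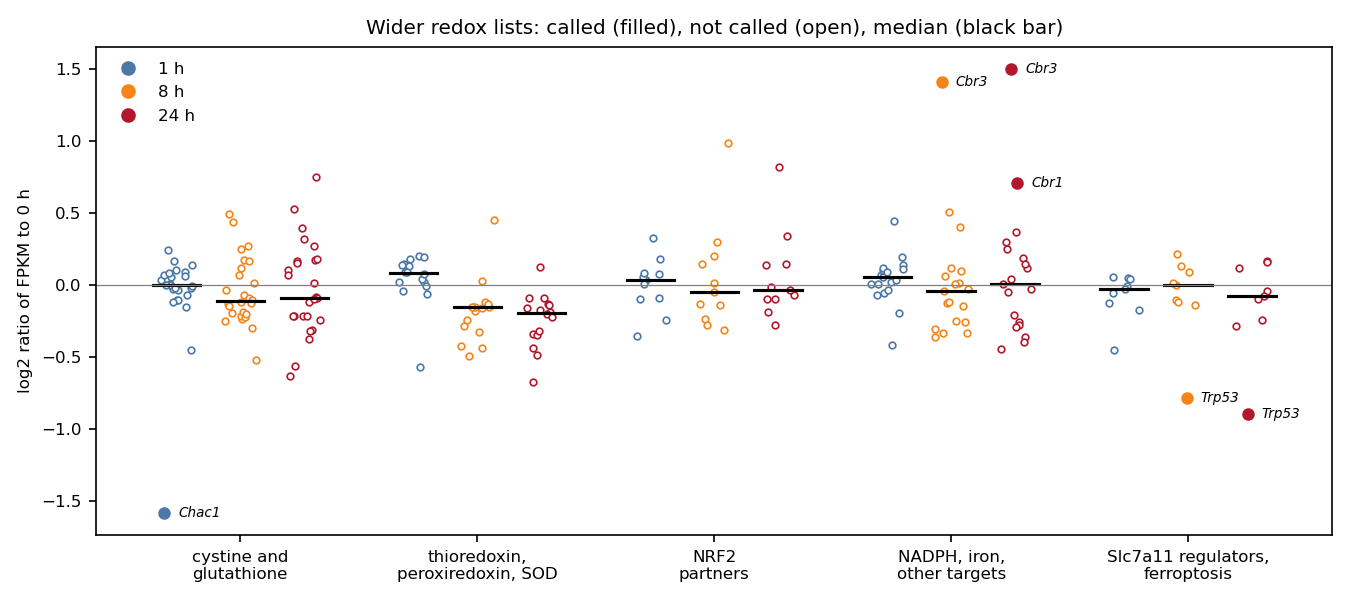
Log2 ratios of FPKM to 0 h for the tested genes of the 5 wider redox lists at 1, 8 and 24 h, with called genes filled and named, others open, and the median of each list as a black bar. The called genes are Chac1 at 1 h, Cbr3 and Trp53 at 8 and 24 h and Cbr1 at 24 h, and list medians lie between -0.20 and 0.08.

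The genes with ratios most like those of Slc7a11 were found by Euclidean distance over the 3 log2 ratios, among 10995 uniquely named genes tested in all tables. The 5 nearest were Slc17a1, Gm40578, Dapl1, Aldh1a1 and C030018K13Rik, at distances of 0.59, 0.69, 0.73, 0.73 and 0.74, where the median distance was 2.86. Aldh1a1, a retinaldehyde dehydrogenase that makes retinoic acid in the retina, was called lower at 24 h, from 1.52 FPKM (0.950 to 2.08) to 0.292 (0.000389 to 0.585). C030018K13Rik was also called lower at 24 h, from 4.26 FPKM to 0.787 (0.226 to 1.35), and neither was called at 8 h. Slc17a1 and Dapl1 had at most 3 estimated counts at 24 h, from 18.0 and 15.5 at 0 h, and Gm40578 had an interval of 0.0496 to 4.35 FPKM at 0 h. These 3 were not called, so the likeness of their ratios rests on imprecise values.

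**Figure D5:**
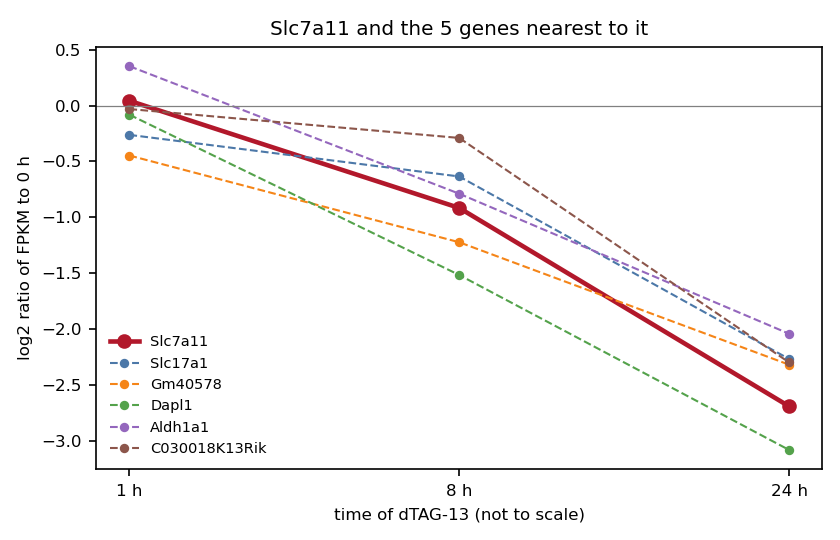
Log2 ratios of FPKM to 0 h at 1, 8 and 24 h (axis not to scale in time) for Slc7a11 (thick line) and the 5 genes at the smallest distance from it (dashed). At 24 h Slc7a11 is at -2.69 and the 5 genes lie between -3.08 and -2.04; of these, Aldh1a1 and C030018K13Rik were called.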

How the data were processed

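Polyadenylated RNA of 8 samples (4 groups of 2, grouped by title) was sequenced. Per the submitters' processing notes, Cufflinks 2.2.1, Cuffdiff and mm10 were used. The aligner, annotation, strand setting and interval level are not given in the sources used here. The authors deposited 3 pairs of tables, each setting 0 h against 1, 8 or 24 h: per the file headers these hold FPKM and the limits of its interval, and estimated counts and their variance. Each column combines both samples, so no count model was fitted and n is 1 value per condition.

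Ratios were formed within tables as log2((FPKM at t + 0.1) / (FPKM at 0 h + 0.1)). This scale shrinks the ratios of weakly expressed genes. The calling rule was tested on simulated data. The SE of a count ratio comes from the deposited variances. Positions and transcripts are GENCODE M21 (GRCm38, the same assembly as mm10), and promoters are RefSeq (GRCm38.p6). Named genes are the 10 members, called genes and the 2 most abundant of each list, and the 5 genes nearest to Slc7a11. The ATF4 motif was added after the data were seen. Members and lists were chosen with earlier results of these data known. Python 3.11.15, pandas 2.3.3 and numpy 2.4.6 were used. Alternatives changed the pseudocount, FPKM filter, measure, interval, fold and centring. In the eye field list, 1 gene is not reported here.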

Additional observations from a re-analysis of the deposited data

How the results depend on the processing

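The fall of Slc7a11 was called at 8 and 24 h under all alternatives except a filter of 5 FPKM, which leaves the gene out (0 members called at each time), and, at 8 h, a fold of 2 (0 members). Its log2 ratio ranged from -0.97 to -0.61 at 8 h and from -3.06 to -1.41 at 24 h, the smaller values with a pseudocount of 1 FPKM. At 24 h, 2 members were called, the second being Keap1, with estimated counts, with the fold criterion alone and with 2 deposited SDs as the interval. Redox list genes called were 2 at 1 h with estimated counts (Chac1 and Txnip), 1 at 8 h with a filter of 5 FPKM and 1 with a fold of 2. At 24 h they numbered 7 by the fold criterion alone, 5 with 2 deposited SDs and 1 with a fold of 2. Over all loci, a filter of 5 FPKM gave 30 calls at 1 h and no filter 95. The fold criterion alone gave 707, 1896 and 2371 at 1, 8 and 24 h, and a fold of 2 gave 217 at 8 h and 297 at 24 h. A stricter filter or fold tests or passes fewer loci by construction. No filter, or the fold criterion alone, tests or passes more by construction. The cause of the other shifts was not tested. No called value changed sign. No paired analysis was possible because each column combines both replicates, and for the same reason no replicate could be left out. Depth limits the lowest values most: the interval of Slc7a11 at 24 h extends 55.6% to each side.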
